A study of Mus musculus with 12 samples.

Results

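The 48 genes described here act in the cell cycle and in DNA replication. They were taken as a list of mouse gene symbols, by a rule that uses no measured value, but the list was chosen with earlier results of these data known. Of them, 19 act in S phase or in its preparation (the replication genes) and 29 act in mitosis (the mitosis genes). All 48 were among the 14004 genes of the deposited table, and all 48 were among the 13058 genes tested, a set that needed 3 libraries or more with a value of 10 or higher. RNA-seq had been made from iNKT1 cells, the T-bet-expressing class of invariant natural killer T cells, which are T cells that recognise lipids on CD1d. The cells were primary cells sorted for CD1d tetramer and YFP from thymus or liver. Control cells had the genotype Tbx21Cre Rosa26-YFP+, and conditional knockout (cKO) cells had in addition Ets1F/F, floxed alleles of Ets1, a transcription factor of the ETS family. Both genotypes thus carried Cre under Tbx21, the gene of T-bet, and the YFP reporter of Cre activity, so deletion starts only once Tbx21 is on and the sort took cells with Cre activity. There were 4 groups (control thymus, cKO thymus, control liver, cKO liver) of 3 libraries, and no age or sex is stated in the labels. The design text calls the 3 replicates independent without saying that they are separate mice, so the p-values measure the spread between these libraries, which may be technical. In bulk RNA a smaller share of cycling cells and less RNA of these genes per cell cannot be told apart.

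DNA replication is prepared in G1, when Cdc6 and Cdt1 load the MCM helicase onto origins, and starts when cyclin E and E2F factors carry the cell into S phase, where the sliding clamp PCNA and the enzymes of nucleotide supply serve the fork. Mitosis is driven by cyclin B with CDK1, by Aurora and Polo kinases and by spindle motors, while condensins and topoisomerase II shape the chromosomes. Genes of the first kind are classical targets of E2F factors, and many of the second kind carry a cell cycle homology region (CHR) near their start, through which they are repressed in resting cells. Mature iNKT1 cells are known as cells that mostly rest.

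The promoters of 39 of the 48 genes were matched in RefSeq on GRCm38.p6, 16 of replication genes and 23 of mitosis genes, as 250 bases before to 50 bases after the start. Mcm4, Ccne2, Gins2, Ccna2, Aurkb, Foxm1, Smc4, Tpx2 and Kif20a were not matched. An E2F motif (TTTCCCGC, TTTCGCGC, TTTGCCGC or TTTGGCGC, on either strand) was in 7 of the 16 replication promoters (43.8%) and in 2 of the 23 mitosis promoters (8.7%), against 2.32% of 27025 promoters of all genes. A CHR motif (TTTGAA or TTCGAA, on either strand) was in 2 of 16 replication promoters (12.5%), in 18 of 23 mitosis promoters (78.3%) and in 19.4% of all. The letters CCAAT, which can stand beside a CHR, were in 62.5%, 82.6% and 37.9% of these promoters. CCGGAAG, a core that ETS factors such as Ets1 bind, was in 1 replication promoter (6.25%), in 6 mitosis promoters (26.1%) and in 9.12% of all. These matches are letters in a window, not sites shown to be bound, and matches of an E2F motif on the 2 strands can overlap. Sequences of 7 promoters are shown because they hold these letters and belong to genes whose values are given further on. Each runs 5′ to 3′ from 250 bases before to 20 bases after the start, and capitals mark E2F and CHR motifs. For each gene the first promoter listed was used. The replication genes shown are Mcm6 (chr1:128359686-128359955, minus strand; 3 E2F matches, some overlapping), Mcm5 (chr8:75109259-75109528, plus strand; 2 that overlap) and Cdc6 (chr11:98907901-98908170, plus strand; 1 match). By the GENCODE annotation Cdc6 starts at 98907801, so the window shown for it lies inside the annotated gene.
Mcm6: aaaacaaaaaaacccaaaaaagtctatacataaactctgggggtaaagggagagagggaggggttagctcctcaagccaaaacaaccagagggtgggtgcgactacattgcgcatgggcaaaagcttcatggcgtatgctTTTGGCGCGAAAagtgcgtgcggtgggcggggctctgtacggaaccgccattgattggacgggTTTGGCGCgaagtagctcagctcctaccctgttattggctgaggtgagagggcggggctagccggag
Mcm5: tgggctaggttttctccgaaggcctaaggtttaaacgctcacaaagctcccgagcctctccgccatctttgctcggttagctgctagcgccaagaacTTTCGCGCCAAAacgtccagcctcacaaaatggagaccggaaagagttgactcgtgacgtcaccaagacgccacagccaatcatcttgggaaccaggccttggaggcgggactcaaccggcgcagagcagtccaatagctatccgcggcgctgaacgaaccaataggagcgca
Cdc6: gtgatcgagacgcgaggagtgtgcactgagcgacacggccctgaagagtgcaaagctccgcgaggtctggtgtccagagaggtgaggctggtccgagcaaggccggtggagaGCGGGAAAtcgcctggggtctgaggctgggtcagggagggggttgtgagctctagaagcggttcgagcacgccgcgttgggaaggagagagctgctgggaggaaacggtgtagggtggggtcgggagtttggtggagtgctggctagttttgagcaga
The mitosis genes shown are Cdk1 (chr10:69352893-69353162, minus strand; 1 E2F match and 2 CHR matches), Top2a (chr11:99024170-99024439, minus strand; 4 CHR matches), Mki67 (chr7:135716360-135716629, minus strand; 2) and Hmmr (chr11:40733418-40733687, minus strand; 1).
Cdk1: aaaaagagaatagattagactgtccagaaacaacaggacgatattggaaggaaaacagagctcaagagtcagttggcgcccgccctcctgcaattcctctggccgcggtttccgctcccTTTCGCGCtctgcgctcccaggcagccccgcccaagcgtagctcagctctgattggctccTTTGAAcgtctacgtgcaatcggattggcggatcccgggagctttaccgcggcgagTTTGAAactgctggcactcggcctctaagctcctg
Top2a: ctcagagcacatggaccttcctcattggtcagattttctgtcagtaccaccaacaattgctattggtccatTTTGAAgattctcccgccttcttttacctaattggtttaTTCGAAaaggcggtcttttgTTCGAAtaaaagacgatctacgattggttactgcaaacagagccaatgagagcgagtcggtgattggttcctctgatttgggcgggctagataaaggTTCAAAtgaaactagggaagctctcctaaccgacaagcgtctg
Mki67: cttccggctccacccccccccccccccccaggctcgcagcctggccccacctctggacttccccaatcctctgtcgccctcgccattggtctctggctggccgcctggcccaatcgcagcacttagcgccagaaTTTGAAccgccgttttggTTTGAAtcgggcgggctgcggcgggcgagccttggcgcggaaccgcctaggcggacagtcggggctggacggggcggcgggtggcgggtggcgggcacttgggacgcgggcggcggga
Hmmr: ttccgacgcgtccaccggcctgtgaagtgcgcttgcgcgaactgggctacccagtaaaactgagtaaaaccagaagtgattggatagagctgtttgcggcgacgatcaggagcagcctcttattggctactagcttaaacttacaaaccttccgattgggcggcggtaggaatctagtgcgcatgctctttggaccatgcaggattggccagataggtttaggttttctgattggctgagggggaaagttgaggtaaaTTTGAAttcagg

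Values are the authors' deposited values, adjusted for library size, and the reads behind them were recovered from the steps in which they vary. The 12 libraries held 3.21 M to 43.4 M recovered reads. Control liver 3 (3.87 M) and cKO liver 2 (3.21 M) were far shallower than the others, and 1 read was worth 6.06 and 6.66 units in them against at most 1.25 elsewhere. Control thymus 1 and 2 had no read in 20.7% and 15.9% of the tested genes, against 3.74% to 11.7% in the others. Ets1, the floxed gene, had values of 23692, 28051 and 19493 in control thymus and 11817, 7069 and 5788 in cKO thymus, a log2 difference of -1.58 ± 0.27 (SE, limma adjusted p = 0.0095). In liver its values were 18773, 18528 and 15910.2 in control liver and 3594, 4425 and 5787 in cKO liver, a difference of -1.97 ± 0.27 (SE, limma adjusted p = 0.0012). Libraries of the 2 genotypes did not overlap in either tissue. The thymus call was lost in a fit of the 6 thymus libraries alone (0.59), without cKO thymus 3 (0.072) and without control thymus 1 and 2 (0.4), and the liver call without the 2 shallowest libraries (0.059), all limma adjusted p. The labels do not say which exons of Ets1 are floxed. All 13 markers of T and iNKT1 cells had reads in every library. Rag1 and Dntt, which mark immature thymocytes, had no read in any liver library. In thymus, Rag1 had 389 reads in control thymus 3 and 221 in cKO thymus 3, and at most 3 in the other 4. Dntt had 82 reads in cKO thymus 1, 61 in cKO thymus 3 and 9 in control thymus 3, and no read in the other 3. The hepatocyte, the myeloid and the erythroid markers each summed to at most 0.00695% of a library.

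Summed over the list, replication genes took the largest share of the library in the 3 cKO liver libraries, at 0.121%, 0.14% and 0.16%. Their share was 0.0469%, 0.0556% and 0.0882% in control liver, 0.026%, 0.0501% and 0.0735% in control thymus and 0.0467%, 0.0454% and 0.0928% in cKO thymus. All 3 cKO liver libraries thus lay above the other 9, while the other 3 groups overlapped each other. The 29 mitosis genes took 0.185%, 0.173% and 0.419% in cKO liver against 0.0959%, 0.068% and 0.133% in control liver, again with no overlap of the genotypes. In control thymus their share was 0.0476%, 0.0536% and 0.0534%, and in cKO thymus 0.0591%, 0.0305% and 0.127%, so the thymus genotypes overlapped. Library cKO liver 3 stood above its group for mitosis: it held the highest of all 12 values for 22 of the 29 mitosis genes, but for only 7 of the 19 replication genes. Library cKO thymus 3 was the highest of the 6 thymus libraries in both sums. It was also 1 of the 2 with many Rag1 reads and 1 of the 3 with Dntt reads. The immature thymocyte markers together took 0.0391% of it, beside 0.0382% of cKO thymus 2 and 0.0385% of control thymus 2. Control thymus 3, with the most Rag1 reads, had 0.0735% for replication and 0.0534% for mitosis genes. The part of immature thymocytes in the values of cKO thymus 3 was not tested.

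**Figure D1:**
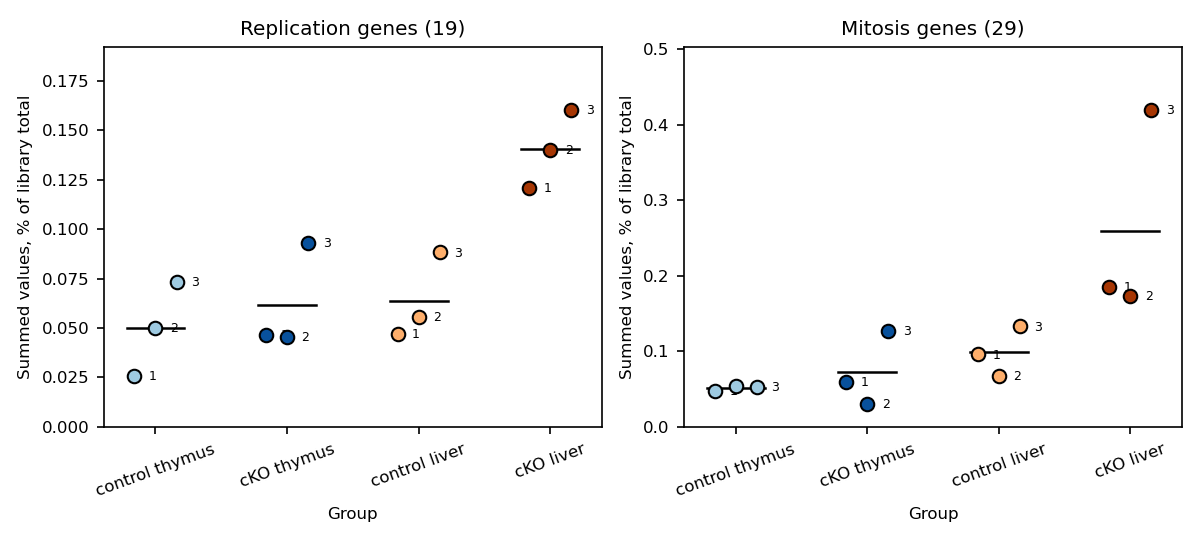
Summed deposited values of the 19 replication genes (left) and the 29 mitosis genes (right) as percent of the library total, by group; points are libraries with their replicate number and bars are group means. The 3 cKO liver libraries lie above all 9 others in both panels, and cKO liver 3 stands at 0.419% for mitosis genes.

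**Figure D2:**
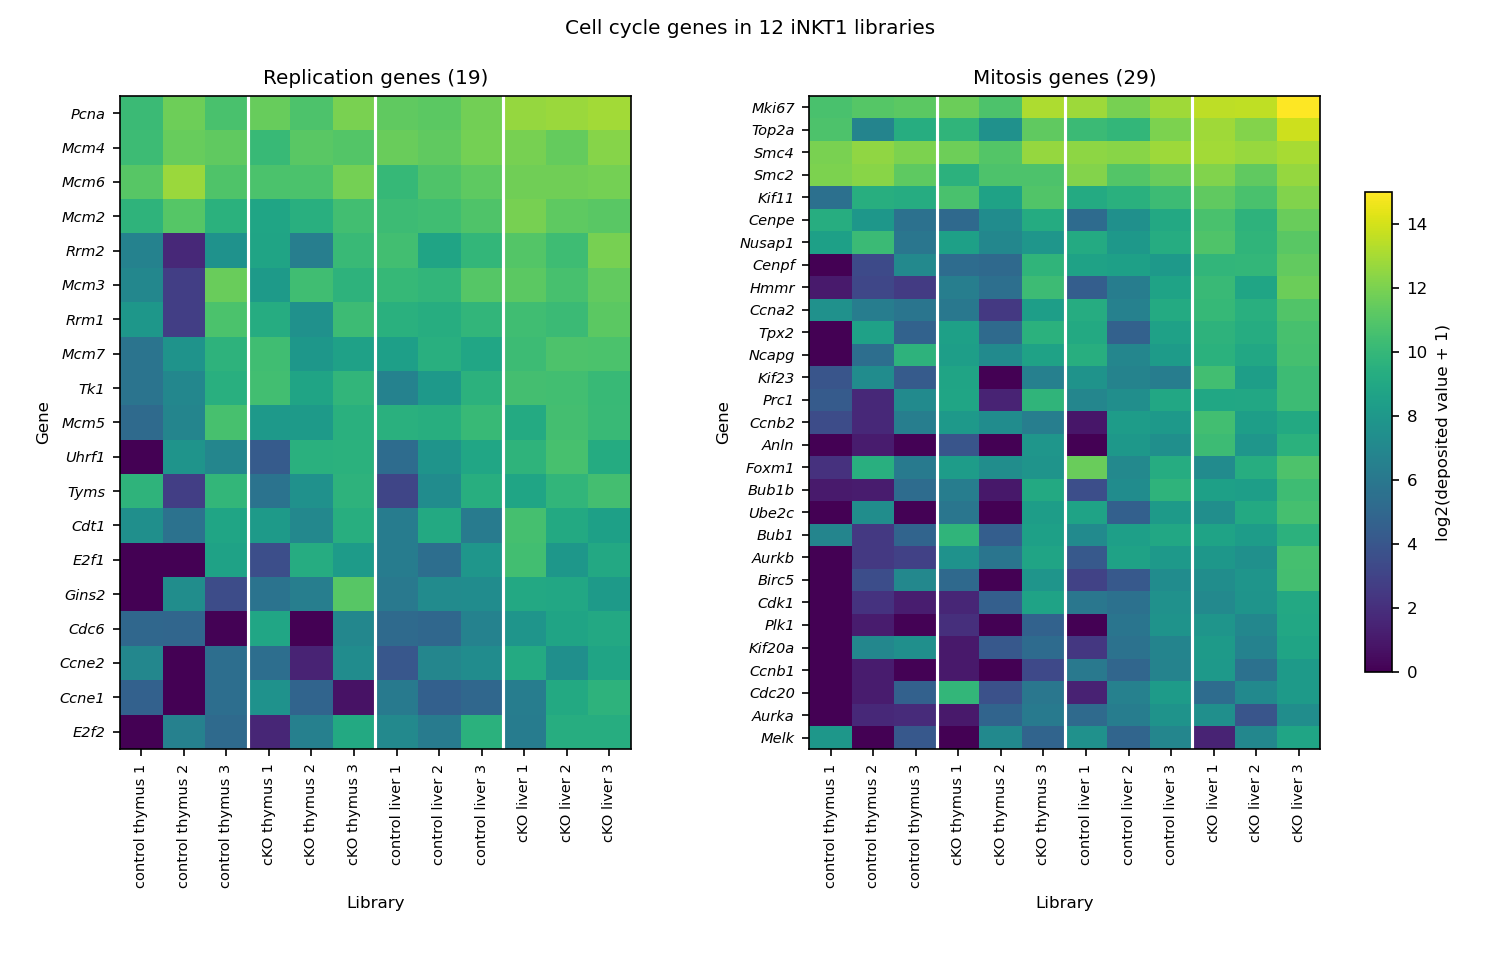
The value of each gene (from top to bottom by the cKO liver mean) in each of the 12 libraries (columns), as log2 of the deposited value + 1. Dark cells at 0 are genes without a read: 13 of the 29 mitosis genes in control thymus 1 and 6 in cKO thymus 2, against none in the 3 cKO liver libraries.

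In liver, replication and mitosis genes stood higher in cKO cells than in control cells in many members, but none passed the test over all genes. The clamp gene Pcna, the helicase genes Mcm2, Mcm6 and Mcm7 and the mitosis genes Mki67, Top2a, Cenpe, Hmmr and Kif11 were among 24 genes whose genotypes did not overlap. No member passed the adjusted threshold of 0.05 in either direction (limma on log2(value + 1), Benjamini-Hochberg over all tested genes), where 0.505% of all tested genes did, 0.314% higher. At an unadjusted p under 0.05, 7 members were higher and 0 lower, that is 14.6% against 3.43% of all tested genes higher and 3.49% lower. That count of 7 was 2 without control liver 1 or cKO liver 3 (2.5% and 2.56% of all tested genes higher), 4 without cKO liver 1 (2.63%), 12 without control thymus 2 (4.23%) and 31 in the 6 liver libraries alone (7.04%). On the recovered reads edgeR and DESeq2 called 0 members too, with 6 and 11 higher and 0 lower at an unadjusted p under 0.05. Of all genes they tested, 3.11% and 3.87% were higher and 3.43% and 4.27% lower at that p. The 3 cKO libraries lay above the 3 control libraries for 24 of the 48 genes, and for 0 did they lie below, while 9.99% of all tested genes lay above and 8.66% below. This kind of count was chosen after seeing the data, and members share their libraries and are not replicates. The 24 were 12 of the 19 replication genes and 12 of the 29 mitosis genes. For Hmmr, Ccne2 and E2f1 the nearest libraries were the shallow control liver 3 and cKO liver 2. They held 68 and 68, 26 and 26 and 39 and 37 reads of these genes. The order of these libraries thus rests on their scaling. Estimates were above 0 for 45 of 48, all but Melk, Foxm1 and Aurka, against 51.5% of all tested genes. The median log2 difference was 1.66 for replication genes and 1.81 for mitosis genes, beside 0.03 for all tested genes. Without cKO liver 3 the medians were 1.60 and 1.37, and 25 members lay above control with no overlap, beside 14.1% of all tested genes. Fitted on the 6 liver libraries alone, limma called 5 members, Pcna, Mki67, Top2a, Cenpe and Kif11, all higher in cKO (adjusted p from 0.0092 to 0.041), with 2.24% of all tested genes called. With array weights it called the first 4 of these, with 4.75% called. Summed marker lists also differed between the liver genotypes. The 6 B cell markers in the table summed to 0.0234% to 0.0295% of the library in control liver and 0.00518% to 0.0078% in cKO liver. Of them, 0 to 4 lacked a read in a library. The 9 immature thymocyte markers in the table summed to 0.0642% to 0.0733% and 0.0382% to 0.0551%, with 3 or 4 lacking a read, Rag1 and Dntt in all 6. The genes with the highest level of their list in control liver, named here after their values were seen, were Ighm and Cd4: Ighm had 6512 ± 1105 in control liver and 1468 ± 465 in cKO liver, and Cd4 had 7106 ± 752 and 908 ± 715 (SD, n = 3). Of the 8 immature thymocyte markers tested, 4 were higher and 4 lower in cKO liver (median log2 difference -0.01), Themis among the higher at 4558 ± 1073 and 5749.7 ± 811. In control liver the lists summed on average to 6839 (B cell) and 17066 (immature thymocyte), so Ighm made up most of the first and Cd4 much of the second. Whether these reads came from the iNKT1 cells or from other cells, and their part in the result, was not tested.

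Among the genes of origin licensing and of the fork, Pcna (chr2:132249162-132253314), the clamp that holds polymerases on DNA, had values of 2592, 2379.8 and 3616 in control liver and 6446, 6822 and 7842 in cKO liver. Every cKO library lay well above every control library, with group means of 2863 ± 661 and 7037 ± 723 (SD, n = 3). The log2 difference was 1.32 ± 0.40 (SE, limma adjusted p = 0.21), the smallest p of the 48. Mcm6 (chr1:128331590-128359664), a subunit of the MCM helicase, had 1079, 1866 and 2447 in control liver and 3374, 3418 and 3702 in cKO liver, with a difference of 1.04 ± 0.49 (SE, limma adjusted p = 0.7). Its cKO libraries lay close together and clear of the highest control library. The subunit Mcm2 had 1267, 1352 and 1859 in control liver and 3821, 2504 and 2337 in cKO liver and a difference of 0.94 ± 0.53 (SE, limma adjusted p = 0.85). Mcm7, whose exons overlap those of Ap4m1 and Cops6 on the other strand, had 358, 701 and 467 in control liver and 1239, 1769.9 and 1699 in cKO liver and a difference of 1.66 ± 0.89 (SE, limma adjusted p = 0.81). In both the genotypes did not overlap, although neither passed the threshold. For the subunits Mcm3, at 1073, 939.7 and 2137 in control liver and 2417, 1572 and 2652 in cKO liver, and Mcm4 the genotypes overlapped, with differences of 0.74 ± 1.35 and 0.30 ± 0.42 (SE), and Mcm4, at 3037, 2608 and 3718 in control liver and 3934, 2812 and 4996 in cKO liver, was among the most even members. Mcm5 also overlapped, at 736, 670.3 and 1084 in control liver and 574, 1478 and 1146 in cKO liver.

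The loaders of the helicase were low in control liver. Cdc6 had 34.8, 31.7 and 97.9 in control liver and 226, 424 and 530.5 in cKO liver with no overlap, and the difference was 2.93 ± 2.05 (SE, limma adjusted p = 0.95). For Cdt1, whose values were 76.5, 546 and 73.9 in control liver and 1506, 547 and 369 in cKO liver, the genotypes overlapped through control liver 2 and the difference was 2.20 ± 1.12 (SE, limma adjusted p = 0.78). Gins2, a subunit of the GINS complex that completes the active helicase, had 66.1, 153 and 158 in control liver and 521, 499 and 284 in cKO liver and did not overlap, with a difference of 1.83 ± 1.73 (SE, limma adjusted p = 1). Uhrf1, which brings the maintenance DNA methyltransferase to new DNA, had 39.1, 212 and 461 in control liver and 877, 1609 and 597 in cKO liver. Its difference was 2.58 ± 1.78 (SE, limma adjusted p = 0.95), and all cKO libraries lay above all control ones. The fit gives a gene 1 SE for both tissues, and Cdc6, Gins2 and Uhrf1 each lacked a read in at least 1 thymus library.

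Nucleotide supply was read from 4 genes. Tk1 (chr11:117815526-117826092), thymidine kinase of the salvage pathway, had 100.01, 274 and 782 in control liver and 1468, 1431 and 1100.4 in cKO liver. The cKO libraries were alike and the control libraries spread widely, with control liver 1 lowest and no overlap, and the difference was 2.25 ± 0.94 (SE, limma adjusted p = 0.56). Rrm2, the small subunit of ribonucleotide reductase, had 1384, 424 and 981 in control liver and 2046, 1286 and 3912 in cKO liver, and the genotypes overlapped through control liver 1; the difference was 1.39 ± 1.24 (SE, limma adjusted p = 1). Its partner Rrm1 had 744, 658 and 927 in control liver and 1338, 1219 and 2368 in cKO liver with no overlap and a difference of 1.03 ± 1.3 (SE, limma adjusted p = 1). Tyms, thymidylate synthase, had 7.80, 154 and 685 in control liver and 452, 925 and 1459 in cKO liver, where control liver 1 was very low and 1 cKO library lay within the control range; its difference was 3.12 ± 1.74 (SE, limma adjusted p = 0.84).

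Among regulators of the G1/S step, the transcription factor E2f1 had 76.5, 42 and 237 in control liver and 1409.9, 247 and 537 in cKO liver. Its cKO libraries lay above control with no overlap, the lowest of them, cKO liver 2, only just, and the difference was 2.63 ± 2.06 (SE, limma adjusted p = 0.99). The cyclins E did not overlap either. Ccne1 had 69.6, 23.1 and 31.5 in control liver and 80.5, 553 and 844 in cKO liver (difference 3.14 ± 1.97, SE), and Ccne2 had 15.6, 115 and 158 in control liver and 576, 173 and 438 in cKO liver (difference 2.39 ± 1.94, SE). Control liver 3 and cKO liver 2, nearest to each other in both, held 26 and 26 reads of Ccne2 and 39 and 37 of E2f1. The factor E2f2 had 132, 75.5 and 751 in control liver and 78.0, 639.6 and 653 in cKO liver, and there all 3 cKO libraries lay within the control range.

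The mitotic cyclins and their kinase were less separated. Ccna2 (chr3:36564865-36572150), cyclin A of S phase and mitosis, had 616, 96.1 and 569.5 in control liver and 1072, 713 and 1938 in cKO liver with no overlap and a difference of 1.81 ± 1.32 (SE, limma adjusted p = 0.96). Ccnb2, a cyclin B, had 0.85, 315 and 273 in control liver and 1381, 333 and 545 in cKO liver, with control liver 1 at 1 read and cKO liver 2 just above the highest control library; the difference was 3.54 ± 1.82 (SE, limma adjusted p = 0.78). Ccnb1, the main cyclin B, had 67.0, 30.0 and 102 in control liver and 279, 47.4 and 284 in cKO liver, and Cdk1, the kinase that cyclin B activates, had 60, 47.2 and 193 in control liver and 133, 212 and 523 in cKO liver. Both overlapped, with differences of 1.38 ± 1.67 and 1.57 ± 1.84 (SE). The value of Ccnb1 in cKO liver 2 rests on 7 reads.

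Of the genes of kinetochore and spindle checkpoint, Cenpe (chr3:135212537-135273611), the kinesin that carries chromosomes to the spindle equator, had 37.4, 180.2 and 534 in control liver and 1687, 833 and 3045 in cKO liver. The lowest cKO library was above the highest control library, and the difference was 3.39 ± 1.23 (SE, limma adjusted p = 0.39). Cenpf, a kinetochore protein, had 395, 373 and 262 in control liver and 931, 959 and 2643 in cKO liver with no overlap and a difference of 1.98 ± 1.59 (SE, limma adjusted p = 0.99). The checkpoint kinases Bub1 and Bub1b overlapped between genotypes, Bub1 at 144, 346 and 502 in control liver and 418, 314 and 803 in cKO liver and Bub1b at 11.3, 159 and 857 in control liver and 370.1, 340.2 and 1285 in cKO liver. Cdc20, which activates the anaphase promoting complex, also overlapped, at 1.72, 94.4 and 301 in control liver and 38.0, 140.4 and 289 in cKO liver.

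Hmmr (chr11:40701395-40733422), a spindle protein also known as a receptor of hyaluronan, had 21.7, 82.4 and 412 in control liver and 1149, 454 and 3178 in cKO liver. Control liver 3 was nearest to the cKO libraries and lay just under cKO liver 2, each of these on 68 reads. The difference was 3.68 ± 1.57 (SE, limma adjusted p = 0.59). Tpx2, which activates Aurora A at spindle microtubules, had 560.3, 24.0 and 376 in control liver and 814, 632 and 1558 in cKO liver and no overlap, with a difference of 2.42 ± 1.77 (SE, limma adjusted p = 0.97). The kinase genes themselves overlapped: Aurkb, of the chromosomal passenger complex, had 17.4, 393 and 273 in control liver and 243, 181 and 1527 in cKO liver, with control liver 2 above 2 of the cKO libraries, and a difference of 1.70 ± 1.63 (SE, limma adjusted p = 1). Plk1, the Polo kinase, had no read, 55.8 and 205 in control liver and 221, 120.4 and 502 in cKO liver and a difference of 3.39 ± 2.0 (SE, limma adjusted p = 0.87). Aurka (Aurora A) had 35.6, 79.8 and 207 in control liver and 174, 14.6 and 160.2 in cKO liver, with cKO liver 2 on 2 reads. Melk, another mitotic kinase, had 189, 29.1 and 115 in control liver and 1.77, 119.8 and 449 in cKO liver, with cKO liver 1 on 3 reads. Birc5 (survivin), another passenger protein, had 6.93, 17.1 and 158 in control liver and 165, 227 and 1477 in cKO liver. Its lowest cKO library lay just above the highest control library, and the difference was 3.75 ± 2.18 (SE, limma adjusted p = 0.86).

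Among kinesins and the genes of cytokinesis, Kif11 (chr19:37376403-37421859), the motor that separates the spindle poles, had 574, 731 and 1230.1 in control liver and 2589, 1653 and 4534 in cKO liver and a difference of 1.74 ± 0.87 (SE, limma adjusted p = 0.77). Kif23, of the central spindle, had 207, 106 and 79.9 in control liver and 1406, 334 and 1249.5 in cKO liver, with a difference of 2.79 ± 1.80 (SE, limma adjusted p = 0.92). Nusap1, which bundles spindle microtubules, had 564, 258 and 624 in control liver and 1884, 913 and 2291 in cKO liver and a difference of 1.81 ± 0.94 (SE, limma adjusted p = 0.79). All 3 were higher in every cKO library than in any control library. Anln (anillin), a scaffold of the contractile ring, had no read, 258 and 177 in control liver and 1249.9, 234 and 750.0 in cKO liver, and the genotypes overlapped, since cKO liver 2 was within the control range. Kif20a, at 4.32, 49.7 and 109 in control liver and 293, 101 and 436 in cKO liver, Prc1, at 117, 168 and 502 in control liver and 491, 499 and 1268 in cKO liver, and Ube2c, at 407, 23.1 and 291 in control liver and 172, 559 and 1514 in cKO liver, overlapped too; Kif20a moves passenger proteins to the midzone, Prc1 bundles midzone microtubules and Ube2c is a ubiquitin-conjugating enzyme of the anaphase promoting complex.

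Of the genes of chromosome structure and of the general proliferation markers, Mki67 (chr7:135689784-135716361), the coat protein of mitotic chromosomes known as Ki-67, had 7015, 3813 and 7571 in control liver and 11729, 11919 and 32494 in cKO liver. Group means were 6133 ± 2028 and 18714 ± 11935 (SD, n = 3), and cKO liver 3 was far above the other 2 cKO libraries, which were alike. The difference was 1.5 ± 0.49 (SE, limma adjusted p = 0.28). Top2a (chr11:98992943-99024189), topoisomerase II, had 1181, 964 and 4143 in control liver and 7299.6, 4763 and 14991 in cKO liver and a difference of 2.26 ± 0.92 (SE, limma adjusted p = 0.53), with control liver 3 just under the lowest cKO library. Of the condensin subunits, Smc2 had 4762, 2029 and 3047 in control liver and 4632, 2559 and 6262 in cKO liver, with a difference of 0.44 ± 0.46 (SE). Smc4 had 5663, 5189.7 and 7153 in control liver and 7627, 6696 and 8489.9 in cKO liver, with a difference of 0.35 ± 0.35 (SE). In both the genotypes overlapped. Ncapg, the third condensin gene listed, had 685, 118 and 298 in control liver and 758, 507 and 1529 in cKO liver and overlapped. Foxm1, the transcription factor of many mitosis genes, had 3009, 130.4 and 612 in control liver and 147, 659.8 and 1810.0 in cKO liver, and its highest liver value was in a control library.

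**Figure D3:**
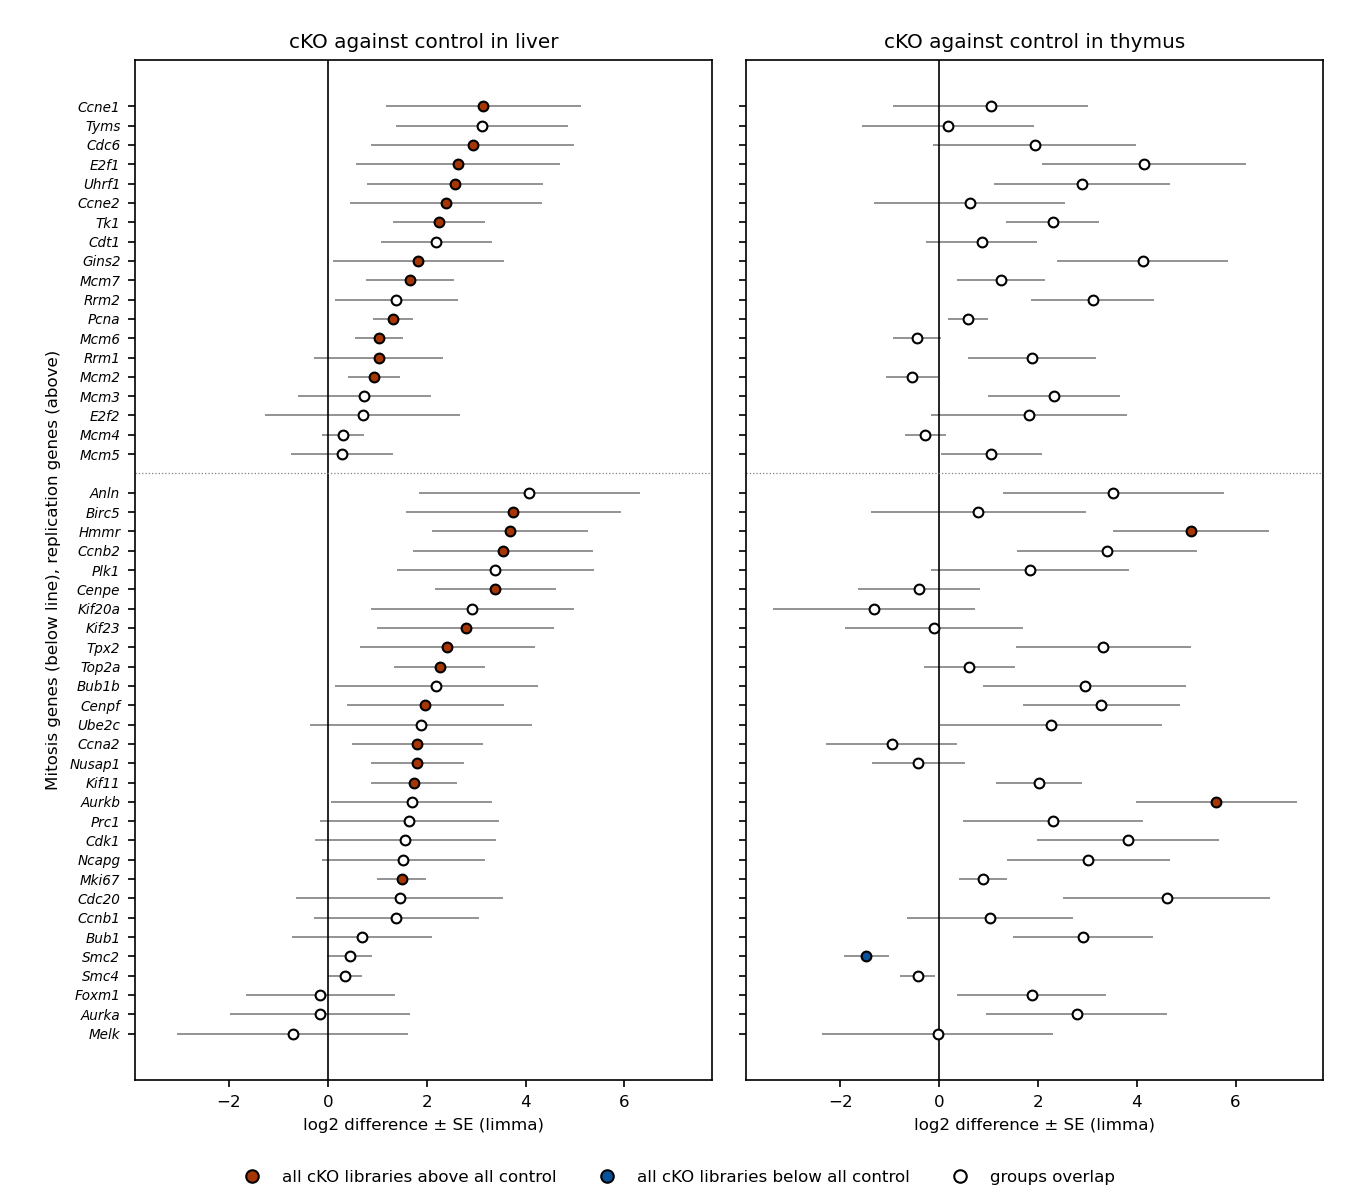
The log2 difference with its SE (limma) of each of the 48 genes between cKO and control in liver (left) and thymus (right), mitosis genes below the dotted line and replication genes above it, ordered by the liver value. Filled points are genes whose 3 cKO libraries all lie above (rust) or below (blue) the 3 control libraries: 24 and 0 in liver, 2 and 1 in thymus. These counts were chosen after seeing the data. Where a thymus group holds almost no reads, the size of the difference depends on the pseudocount.

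In thymus, the genotypes were less separated, and many mitosis genes stood on fewer than 10 reads in control thymus. Hmmr and Aurkb were higher and Smc2 lower in all cKO libraries, but none of the 3 passed the test. No member passed the adjusted threshold, where 0.636% of all tested genes did, 0.314% higher and 0.322% lower. At an unadjusted p under 0.05, 7 members were higher and 1 lower, 14.6% and 2.08%, against 8.13% and 5.1% of all tested genes. Members higher numbered 2 without cKO thymus 3 (2 lower, with 6.58% of all tested genes higher) and 4 without control thymus 1 (7.79%), but 15 without control thymus 3 (13.2%) and 17 without cKO thymus 2 (7.65%). On the recovered reads edgeR called 0, with 9 higher and 1 lower at an unadjusted p under 0.05. Of all genes it tested, 6.54% were higher and 6.62% lower at that p. Only Hmmr and Aurkb lay above control with no overlap and only Smc2 lay below, where 7.6% of all tested genes lay above and 6.89% below, so these counts were near or under the background. Estimates were above 0 for 37 of 48 genes (57.7% of all tested genes). The medians were 1.26 for replication genes and 2.02 for mitosis genes beside 0.24 for all tested genes, and TMM scaling took the last to 0.003. These medians rest on control thymus 1 and 2, the libraries with most genes lacking a read: without them they were -0.57 and 0.87. Against control thymus 3 alone, 8 members lay above with no overlap, while 22.8% of all tested genes did. Without control thymus 3, where Mcm3, E2f1, Tk1 and Ncapg had their highest control thymus values, those 4 genes passed (adjusted p from 0.017 to 0.048, limma), with 4.14% of all tested genes called. Mcm3 had 123, 5.81 and 3067 in control thymus and 291, 1366 and 818 in cKO thymus, so that control thymus 3 alone lay above every cKO library. Without cKO thymus 3 the median of mitosis genes was 0.77. Members above control with no overlap numbered 13 without cKO thymus 2 (13.2% of all tested genes), 5 without cKO thymus 1 (12.7%), 7 without control thymus 2 (13.3%) and 11 without control thymus 3 (16.3%).

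Hmmr had 1.14, 8.12 and 5.06 in control thymus and 83.2, 43.0 and 1268 in cKO thymus, and the control values stood on 1, 7 and 4 reads. The cKO libraries lay above them and spread widely, with cKO thymus 3 highest, and the difference was 5.09 ± 1.57 (SE, limma adjusted p = 0.15). Aurkb had no read, 4.66 and 6.32 in control thymus and 196, 57.0 and 429.6 in cKO thymus, again with few control reads (0, 4 and 5), and a difference of 5.61 ± 1.63 (SE, limma adjusted p = 0.13). With a pseudocount of 10 the differences were 3.67 for Hmmr and 3.77 for Aurkb. Smc2 (chr4:52439243-52488260), the condensin subunit, went the other way, at 4157, 5176 and 2516 in control thymus and 798, 1780.1 and 1761 in cKO thymus. Every control library was above every cKO library, and the difference was -1.48 ± 0.46 (SE, limma adjusted p = 0.15). DESeq2 on recovered reads called 6 members in thymus, Hmmr, Aurkb, Cdk1, Cdc20 and Anln higher and Smc2 lower, with 4.98% of all genes it tested called.

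For genes that stood apart in liver, thymus values were more mixed. Pcna had 1207, 3241 and 1623 in control thymus and 2976, 1799.8 and 4050.4 in cKO thymus, with overlap through control thymus 2. Mki67 had 1670.4, 2098 and 2380.4 in control thymus and 3150.4, 1827 and 9189.8 in cKO thymus, even in control and highest in cKO thymus 3, with cKO thymus 2 inside the control range. Top2a had 1784, 106 and 662 in control thymus and 908, 195 and 2550.2 in cKO thymus, with a wide spread in both genotypes. Mcm6, at 2174, 6777 and 1898 in control thymus and 1697, 1737 and 3741 in cKO thymus, and Mcm2, at 852, 2144 and 756 in control thymus and 451, 709 and 1390.4 in cKO thymus, were highest in control thymus 2, and their thymus estimates were below 0. Tk1 had 53.8, 124 and 703 in control thymus and 1397, 434 and 942 in cKO thymus, where only control thymus 3 reached the cKO range. Cdc6 had 31.4, 30.1 and no read in control thymus and 468, no read and 124 in cKO thymus, so libraries without a read occurred in both genotypes. E2f1 had no read, no read and 404 in control thymus and 11.3, 636 and 299.9 in cKO thymus, Uhrf1 no read, 219.7 and 119 in control thymus and 18.5, 728 and 775 in cKO thymus and Gins2 no read, 162 and 10.1 in control thymus and 51.3, 84.1 and 2179 in cKO thymus, and in each the genotypes overlapped.

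Mitosis genes in control thymus were often at the edge of detection. Cdk1 had no read, 3.50 and 1.3, Ccnb1 no read, 1.19 and no read, Plk1 no read, 1.19 and no read and Anln no read, 1.18 and no read in the control thymus libraries. In cKO thymus they had 2.06, 22.4 and 413, 1.03, no read and 8.78, 3.08, no read and 25 and 14.4, no read and 231, with the highest value of each in cKO thymus 3. Of the 29 mitosis genes, 17, 15 and 8 stood on fewer than 10 reads in control thymus 1, 2 and 3, and 6, 9 and 0 in the cKO thymus libraries. In liver these numbers were 6, 0 and 0 in control and 1, 2 and 0 in cKO, although 2 of these libraries were the shallowest. Of the 19 replication genes, 4, 7 and 2 stood on fewer than 10 reads in control thymus and at most 2 in any other library.

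**Figure D4:**
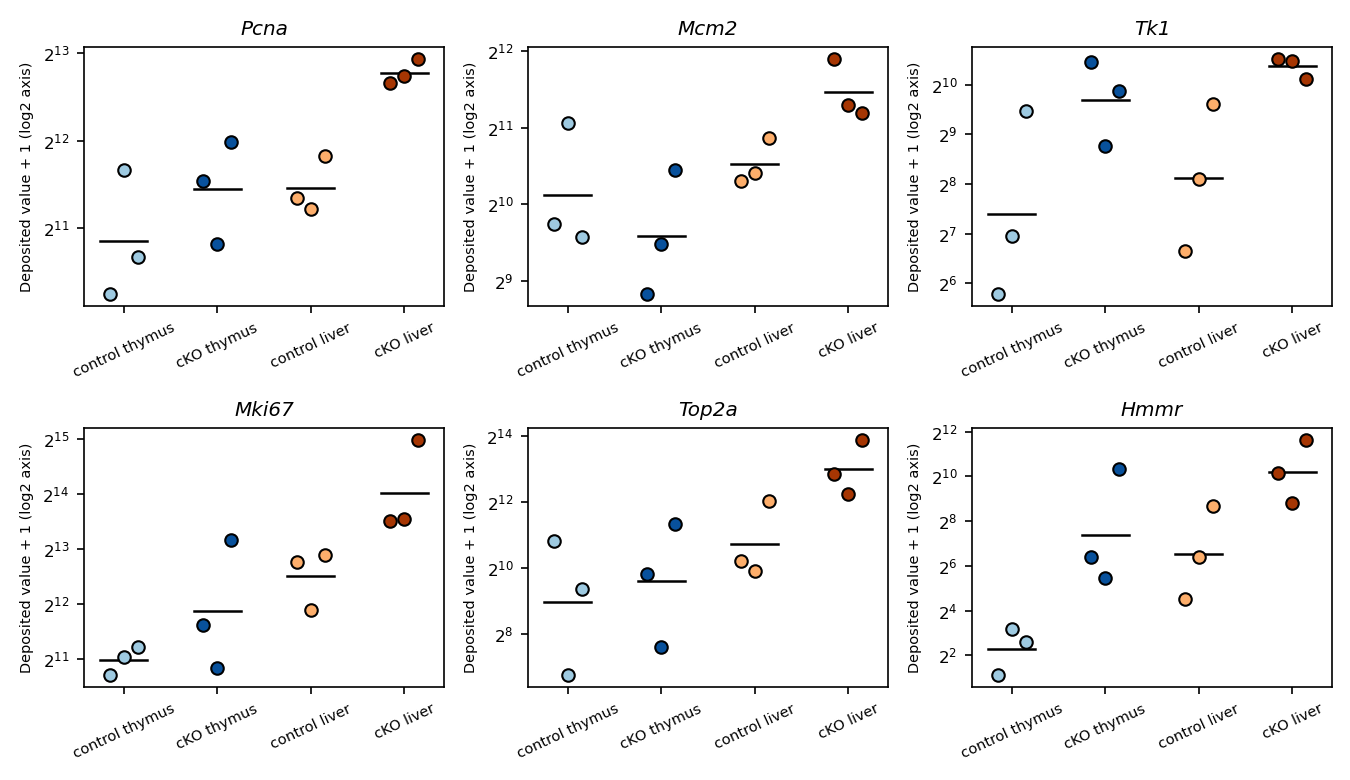
Deposited value + 1 (log2 axis) of 3 replication genes (top) and 3 mitosis genes (bottom) in the 12 libraries; points are libraries in replicate order and bars are means of the log2 values of a group. The 6 genes shown are all among the 24 of 48 whose cKO liver libraries lie above the control liver libraries. In thymus the genotypes overlap except for Hmmr.

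Over both tissues together, the mean genotype effect had 1 member past the adjusted threshold, Hmmr, which rose in cKO by 4.39 ± 1.11 (SE, limma adjusted p = 0.043). The background was 1.18% of all tested genes called higher and 2.27% called in either direction, and 1 of 48 is 2.08%. The call was lost on leaving out cKO thymus 1, cKO thymus 3 or any 1 of the 6 liver libraries, with adjusted p from 0.052 to 0.17, and without the 2 shallowest libraries (0.11) or control thymus 1 and 2 (0.083). On the recovered reads edgeR called it too (adjusted p = 0.017), as the 1 member called, while DESeq2 called 7 members, all higher, where it called 6.12% of the genes it tested. Without control thymus 3, Tk1, E2f1 and Mcm3 also passed (4.18% of all tested genes called), without control thymus 2 Pcna (2.58%) and without cKO thymus 2 Mki67 (2.01%). At an unadjusted p under 0.05, 16 members were higher and 0 lower, that is 33.3% against 8.02% of all tested genes higher and 5.67% lower. Members higher numbered 9 without cKO thymus 3 (6.81% of all tested genes) or cKO liver 3 (6.26%) and 10 without control liver 1 (6.29%). Next in order were Mki67 at 1.19 ± 0.35 (SE, limma adjusted p = 0.084), Tk1 at 2.27 ± 0.66 (SE, limma adjusted p = 0.084), Pcna at 0.95 ± 0.28 (SE, limma adjusted p = 0.094), Aurkb at 3.65 ± 1.15 (SE, limma adjusted p = 0.12) and Kif11 at 1.88 ± 0.62 (SE, limma adjusted p = 0.14). Estimates were above 0 for 45 of the 48, all but Smc2, Smc4 and Melk, against 56.9% of all tested genes, with median log2 differences of 1.53 for replication genes and 1.88 for mitosis genes beside 0.14.

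The difference of the genotype effects between the tissues (liver minus thymus) was tested as an interaction. No member passed (adjusted p at least 0.87), and 0.00766% of all tested genes did, that is 1 gene. At an unadjusted p under 0.05, 3 members, Smc2, Cenpe and Mcm6, had a difference above 0 and 0 had one below. That is 6.25% against 2.19% of all tested genes above and 3.19% below. All 3 had an estimate above 0 in liver and below 0 in thymus, and for Smc2 the fall in thymus was larger than the rise in liver. Estimates were above 0 for 24 of 48, against 43.6% of all tested genes. Members with a difference above 0 at that p numbered 5 without control thymus 3 (3.21% of all tested genes) and 6 without cKO thymus 3 (2.42%). They numbered 1 without cKO thymus 1, cKO thymus 2, control liver 1, control liver 2, cKO liver 1 or cKO liver 3 (1.68% to 2.38%). On the recovered reads edgeR and DESeq2 called 0 members, with 3 and 6 above 0 and 1 and 4 below at an unadjusted p under 0.05. Of all genes they tested, 2.97% and 4.17% were above 0 and 3.12% and 4.07% below at that p. The interaction of Smc2 was 1.92 ± 0.64 (SE, limma adjusted p = 0.87). The medians were 0.40 for replication genes and -0.28 for mitosis genes beside -0.20 for all tested genes. A difference of the effects between liver and thymus was thus not shown for any member. Both medians changed sign with the libraries used: without control thymus 3 that of replication genes was -0.58, without control thymus 1 and 2 it was 2.01, and without cKO thymus 3 that of mitosis genes was 1.07.

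Liver and thymus were also compared within each genotype; these comparisons share their libraries with the genotype comparisons. In control cells no member passed (0.605% of all tested genes did, 0.337% higher), and 43 of 48 estimates were higher in liver, against 59.5% of all tested genes. At an unadjusted p under 0.05, 13 members were higher in liver and 0 lower, 27.1% against 8.75% of all tested genes higher and 3.94% lower. Without control liver 3, 7 were higher (6.23% of all tested genes). On the recovered reads edgeR called 0 (11 higher and 0 lower at an unadjusted p under 0.05) and DESeq2 called 8, all higher, where it called 3.89% of the genes it tested. Of all genes edgeR tested, 6.5% were higher and 5.57% lower at that p. The liver libraries lay above the thymus libraries with no overlap for 10 members, 2 of 19 replication genes and 8 of 29 mitosis genes, and below for 0, where 9.55% of all tested genes lay above and 5.83% below. The count of replication genes was thus near the background. The 10 were Rrm2, Cdc6, Ccnb1, Aurkb, Aurka, Mki67, Cenpf, Cdk1, Hmmr and Bub1. Rrm2 had 99.8, 2.34 and 197 in control thymus against 1384, 424 and 981 in control liver, with a difference of 4.36 ± 1.24 (SE, limma adjusted p = 0.14). Mki67 had 1670.4, 2098 and 2380.4 against 7015, 3813 and 7571, even in thymus and higher in every liver library, with a difference of 1.53 ± 0.49 (SE, limma adjusted p = 0.19). Ccnb1 was nearly without reads in control thymus (0, 1 and 0 reads) and had 77, 35 and 17 reads in control liver. The medians were 1.95 for replication genes and 3.13 for mitosis genes beside 0.28 for all tested genes. Without control thymus 1 and 2 the median of replication genes was -0.15 and 23 members lay above with no overlap, where 28.1% of all tested genes did. Without control thymus 3, Mcm3, Mcm5, Cenpf, Rrm2 and Ncapg passed (adjusted p from 0.01 to 0.049, limma), with 3.02% of all tested genes called. Members above with no overlap then numbered 19 (19.5% of all tested genes), against 19 without control thymus 2 (16.3%) and 17 without control liver 1 (16.1%).

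In cKO cells no member passed either (0.222% of all tested genes did), but all 48 estimates were higher in liver, against 53.7% of all tested genes. At an unadjusted p under 0.05, 17 members were higher and 0 lower, 35.4% against 4.22% of all tested genes higher and 3.38% lower. Without cKO thymus 2 or cKO liver 3, 11 and 10 were higher (4.18% and 2.86% of all tested genes). On the recovered reads edgeR called 0 (12 higher and 0 lower at an unadjusted p under 0.05) and DESeq2 called 5, all higher, where it called 2.18% of the genes it tested. Of all genes edgeR tested, 3.74% were higher and 3.69% lower at that p. Liver lay above thymus with no overlap for 20 members, 6 replication genes and 14 mitosis genes, and below for 0, where 8.81% of all tested genes lay above and 7.26% below. Mki67 had 3150.4, 1827 and 9189.8 in cKO thymus against 11729, 11919 and 32494 in cKO liver, with a difference of 2.14 ± 0.49 (SE, limma adjusted p = 0.084). Top2a had 908, 195 and 2550.2 against 7299.6, 4763 and 14991 and a difference of 3.39 ± 0.92 (SE, limma adjusted p = 0.18). Smc2 had 798, 1780.1 and 1761 against 4632, 2559 and 6262 and a difference of 1.63 ± 0.46 (SE, limma adjusted p = 0.19), and for Mcm2, at 451, 709 and 1390.4 against 3821, 2504 and 2337, it was 1.88 ± 0.53 (SE, limma adjusted p = 0.2). In all 4 the lowest liver library lay above the highest thymus library. The medians were 1.65 for replication genes and 2.82 for mitosis genes beside 0.09. Without cKO thymus 3, the thymus library with the highest sums, 34 members lay above with no overlap (16.1% of all tested genes), and Mki67 passed (adjusted p = 0.037, limma), with 0.0996% of all tested genes called.

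**Figure D5:**
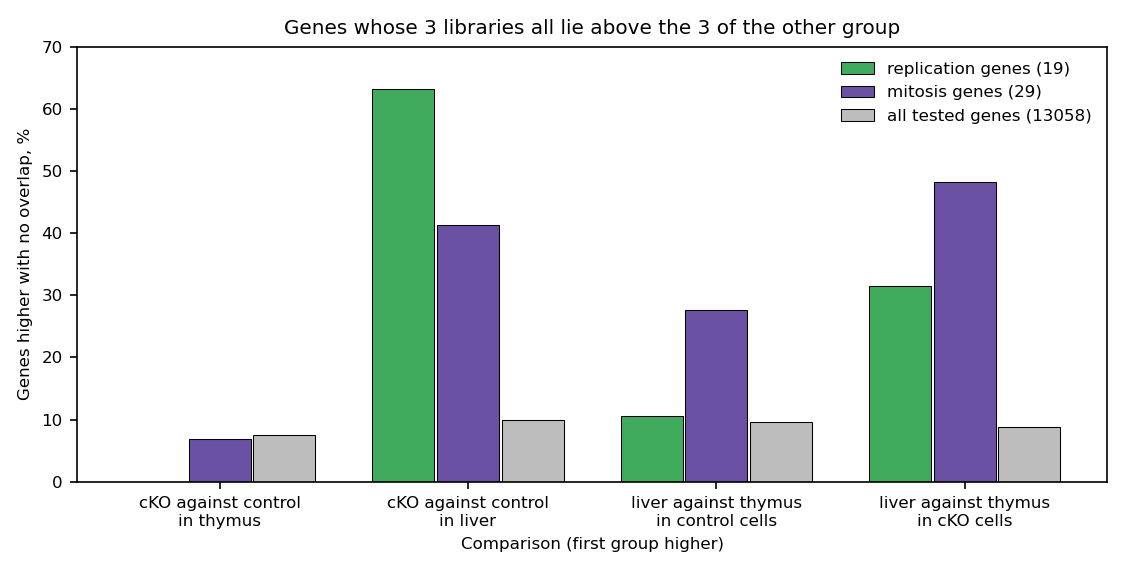
Percent of the 19 replication genes, the 29 mitosis genes and all 13058 tested genes whose 3 libraries all lie above the 3 of the other group, in 4 comparisons. In liver the cKO count is 12 of 19 and 12 of 29, and in thymus it is 0 and 2, beside 9.99% and 7.6% of all tested genes. The counts were chosen after seeing the data, and genes share their libraries and are not replicates.

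Members varied more between replicates than most genes. The median SD of log2 values within a group was 2.16 for replication genes and 2.25 for mitosis genes, against 1.33 for all tested genes and 1.57 for the 3877 tested genes with a similar mean. Smc4 (0.45), Pcna (0.5) and Mcm4 (0.5) were the most even members, and Melk (3.36) and Ube2c (3.31) the least even. The smallest p-values in liver, those of Pcna and Mki67, came with differences of moderate size and small errors, while the largest estimates, such as that of Anln at 4.08 ± 2.24 (SE), came with large ones.

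Other cell cycle genes, from lists that hold none of the 48, were counted in the same way. These lists too were chosen with earlier results of these data known. Of 46 other replication genes, 14 lay above control in cKO liver with no overlap and 0 below (median 0.86), and of 71 other mitosis genes 23 and 0 (median 1.75). Of 13 G1 cyclins and kinases 0 lay above and 0 below (median 0.15), of 17 CDK inhibitors and pocket proteins 2 and 1 (0.04), of 16 subunits of the anaphase promoting complex 2 and 0 (0.47) and of 13 genes of the DNA damage checkpoint 1 and 1 (0.13). Over all tested genes 9.99% lay above and 8.66% below, so the counts of the last 3 lists were near the background. In thymus, 7 other replication genes lay above control and 0 below (median 1.015), and 9 and 0 other mitosis genes did (1.51). There 7.6% of all tested genes lay above and 6.89% below. The remaining lists had 0 and 3, 1 and 3, 1 and 1 and 1 and 3 in the same order. At an unadjusted p under 0.05, 9 other replication (19.6%) and 12 other mitosis genes (16.9%) were higher in thymus and 0 lower. Of all tested genes 8.13% were higher and 5.1% lower. None of these 6 lists had a member called by limma in liver or in thymus, although 3, 8, 0, 1, 0 and 1 of their members in this order were higher and 0 lower in liver at an unadjusted p under 0.05, where 3.43% of all tested genes were higher. Over both tissues 2 other replication genes passed, both higher in cKO. Lig1, the ligase that joins Okazaki fragments, had 333, 242 and 277 in control thymus and 1453, 610.2 and 1188 in cKO thymus, and 222, 262 and 746 in control liver and 2671, 1631 and 2709 in cKO liver. Its cKO libraries lay above control in both tissues with no overlap, and over both it rose by 2.27 ± 0.45 (SE, limma adjusted p = 0.01). Clspn (claspin), an adaptor of the replication checkpoint, had no read, 3.50 and 45.2 in control thymus and 772, 30.8 and 351 in cKO thymus, and 62.6, 69.5 and 134 in control liver and 790.2, 1407 and 1296 in cKO liver, and rose by 4.42 ± 1.10 (SE, limma adjusted p = 0.037); its call was lost without cKO thymus 1 or 3, without any 1 liver library, without control thymus 1 and 2 and without the 2 shallowest libraries (adjusted p from 0.074 to 0.2). The genes of highest mean in each list were mostly even. Dnmt1, Orc3 and Slbp, the cohesin genes Smc3, Rad21 and Smc1a, the G1 genes Ccnd2, Ccnd3 and Cdk4, the pocket protein genes Rbl2 and Rb1, the genes Anapc1 and Cdc27 and the checkpoint genes Atm and Mdm2 overlapped between genotypes in liver. Btg1, an inhibitor of proliferation, and Trp53 lay below control in cKO liver with no overlap, and Anapc5 lay above, none past the threshold.

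Some counts of members are uncertain by position. By the GENCODE annotation of GRCm38, 14 of the 48 genes share exonic bases with another gene, 12 on the other strand and 3 on the same strand, and the labels do not say whether counting used strand. For these genes reads of the partner cannot be told apart from their own. Pcna, Tyms, Ccnb1 and Ccnb2 have named pseudogenes that could take or lend reads.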

How the data were processed

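RNA of sorted iNKT1 cells was extracted with RNeasy kits and made into libraries with the Nugen Ovation Ultralow system, per the labels' protocols. The build mm10 and the tools HTSeq 0.6.1, STAR, TopHat2 2.1.0, DESeq2 and Trimmomatic 0.33 are named without a role or order, per the submitters' processing notes. The table deposited by the authors holds 1 signal value per gene and library, a count adjusted to a common library size; this was read from the values, since no source used here states it. The adjustment could be undone with a dispersion of 1.4, and 96.78% of the values then lay within 0.1 of a whole read (91.28% to 99.85% by library). Those reads gave the depths and served edgeR 4.0.16 and DESeq2 1.42.0 as alternatives. The counting error they carry is larger in the 2 shallow libraries.

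The main test was limma 3.58.1 in R 4.3.3, with a variance trend, on log2(value + 1) of the 13058 genes with a value of at least 10 in at least 3 of 12 libraries; 946 genes were left out. It had 4 group means, 6 contrasts and 8 residual degrees of freedom, and every adjusted p is Benjamini-Hochberg over all tested genes. A log2 difference on this scale understates the change of low genes. Of 14004 genes, 645 had no symbol. The members and lists were chosen with earlier results of these data known, the other cell cycle lists included. Every member was accounted for; of the other lists, members called and the 3 of highest mean were named; marker lists were summed. Replicate numbers were checked for pairing and were not used in the main test. Alternatives were other pseudocounts, filters, scalings, weights, left-out libraries, a replicate block and the count tests.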

Additional observations from a re-analysis of the deposited data

How the results depend on the processing

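The log2 differences printed for single genes kept their sign, but other members did not: estimates in thymus were above 0 for 37 of 48 members, for 31 after quantile normalization and for 29 without control thymus 1 and 2. Medians kept theirs in the comparisons of genotypes and of tissues, except for replication genes without control thymus 1 and 2: -0.57 for cKO against control in thymus and -0.15 for liver against thymus in control cells. The medians of the difference of the effects did not keep theirs: they ran from -0.58 to 0.84 (replication) and from -1.0 to 1.07 (mitosis) over left-out libraries, and the mitosis median was 0.16 with a pseudocount of 10 and 0.82 after quantile normalization. Without control thymus 1 and 2 the replication median of that difference was 2.01. In control cells the replication median between tissues was 0.79 after quantile normalization and 0.49 by both edgeR and DESeq2. Members called in liver by genotype numbered 5 in the 6 liver libraries alone (2.24% of all tested genes called) and 4 with array weights (4.75%). DESeq2 called 6 in thymus, 7 over both tissues, 8 between tissues in control cells and 5 in cKO cells, against 0, 1, 0 and 0 by limma. Over both tissues 2 were called after quantile normalization (392 of the 13058 tested genes called), 3 with array weights (380) and 0 without the 2 shallowest libraries (77). In cKO cells between tissues 1 was called after quantile normalization (60 of all tested genes called) and 2 with array weights (141).

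Replicate numbers gave no clear pairing of the libraries: same-numbered libraries correlated in their deviations at 0.04, -0.1 and -0.08 in thymus and 0.08, 0.08 and 0.07 in liver. In liver each library correlated best with its own number, a hint from the data only, so whether liver libraries were paired cannot be told. With the replicate block, members called were 0 in thymus, 0 in liver, 2 over both tissues, 0 for the difference, 1 between tissues in control cells and 2 in cKO cells. In this order it called 81, 71, 303, 1, 68 and 34 of all tested genes. At an unadjusted p under 0.05, members higher numbered 12, 8, 17, 3, 19 and 18, against 7, 7, 16, 3, 13 and 17 without the block. Of all tested genes, 8.53%, 3.6%, 8.11%, 2.29%, 8.98% and 4.53% were higher with the block. Medians cannot move under the block, since every group holds the same replicate numbers.

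Leaving out each library in turn gave 0 to 4 members called in thymus, 0 in liver throughout, 0 to 4 over both tissues, 0 for the difference, 0 to 5 between tissues in control cells and 0 to 1 in cKO cells. The highest counts in thymus, over both tissues and in control cells came without control thymus 3, with 4.14%, 4.18% and 3.02% of all tested genes called. That in cKO cells came without cKO thymus 3 (0.0996%). Median differences ranged over 0.70 to 2.24 (replication) and 0.77 to 2.95 (mitosis) in thymus, and over 1.38 to 1.92 and 1.37 to 2.26 in liver. Counts without overlap, an alternative set chosen after seeing the data, ranged over 2 to 13 in thymus (7.6% to 16.3% of all tested genes), 24 to 33 in liver (9.99% to 15.9%), 10 to 19 between tissues in control cells (9.55% to 19.5%) and 20 to 34 in cKO cells (8.81% to 16.1%). They were 39 in liver without the 2 shallowest libraries, beside 20.2% of all tested genes, 8 in thymus (22.8%) and 23 in control cells (28.1%) without control thymus 1 and 2, and 6 in control cells after quantile normalization. Of single genes, 42 alternative values newly passed the threshold and 24 no longer did. Mitosis genes in control thymus rest on few reads, 8 to 17 of 29 on fewer than 10.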

Other observations

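Cdkn1a, which encodes the CDK inhibitor p21 and is a classical target of p53, was chosen after its values were seen. It had no read, 3.50 and 31.4 in control thymus and 8.22, 263 and 0.69 in cKO thymus, and no read, 13.7 and no read in control liver and 519, 476 and 295 in cKO liver. These values rest on 0, 16 and 0 reads in control liver and 843, 72 and 343 in cKO liver, the group with the highest sums of replication and mitosis genes. In thymus the genotypes overlapped, on 0, 3 and 25 reads in control and 8, 281 and 1 in cKO. The limma adjusted p in liver was 0.15 in the fit of all libraries, 0.022 in the 6 liver libraries alone, 0.029 after quantile normalization, 0.011 with array weights and 0.55 by edgeR. Over all alternatives with a value it ran from 0.011 to 0.79, the last without the 2 shallowest libraries.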
